A study of Homo sapiens with 13 samples.

Results

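The gene deserts of the human genome were followed in PC9 cells as stretches in which replication forks can be read far from any protein-coding gene. A desert was a gap of 1 Mb or more between neighbouring RefSeq protein-coding gene spans (GRCh38) on chromosomes 1 to 22. Its members were the non-overlapping 20 kb windows lying wholly inside the gap, with a polarity value in at least 2 of the 3 untreated libraries. The rule gave 303 deserts and 25472 member windows of the 143736 windows in all (17.7%). The deserts held 34011 windows before the rule on untreated values, so 74.9% of them became members. Of the 303 deserts, 29 had members in under 50% of their windows. These 29 held 1350 of the members, and 3 deserts held none. The shortest desert measured 1000.65 kb and the longest gap left out 998.71 kb, and the median desert was 1.60 Mb long. The comparison windows were the 47630 windows lying wholly inside protein-coding gene spans (genic windows).

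PC9 is an established human lung adenocarcinoma cell line that depends on an activating EGFR mutation. Osimertinib, an inhibitor of mutant EGFR, was given at 500 nM. The 13 libraries comprised 3 of untreated, growing PC9 cells, 2 taken at day 7 of the drug, 2 at day 14, 4 at day 28, and 1 each of resistant lines 5 and 10. The day 28 cultures are described as non-proliferative at harvest. Each resistant line came from a single-cell clone of PC9 kept in 500 nM osimertinib and growing in it, so each is 1 clone with 1 library. Replicates 3 and 4 of day 28 carry that day in their titles and a 7-day treatment label. They were kept at day 28. The tests of amplitude, zone rise, mean inward difference and single windows were repeated without both. Other comparisons that use them were not, among them the whole-desert test and the gene start minus gene end comparison. The labels do not say whether replicates were grown separately. The p-values therefore weigh differences only against the spread of these libraries, and that spread may be technical.

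TrAEL-seq captures free 3′ ends of DNA, most of which in growing cells lie at replication forks. Polarity, the excess of reads on one strand over the other in a window, runs from -100 to 100 points and tracks whether forks pass it mostly leftward or rightward. Forks start in initiation zones, which in human cells lie often beside active genes, and move away from them in both directions until they meet forks coming the other way. Gene deserts hold few active genes, tend to be in condensed chromatin and are generally replicated late in S phase. Which strand counts as positive is not given in the sources used here. Untreated polarity changed more steeply upwards than downwards along the chromosomes (the 0.5% largest rises over 60 kb began at 118.1 points and the 0.5% largest falls at -80.1), and in deserts too (79.8 and -68.4). Rises were therefore read as initiation and positive values as rightward forks. The opposite sign would exchange initiation with termination and inward with outward movement, and would leave amplitudes as they are.

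The strongest initiation zones of deserts lay at their edges, several of them across the start of the flanking gene. The promoters at 4 large zones that hold such a start are therefore printed first, from RefSeq (GRCh38.p14). Only genes with a promoter entry could be taken, and larger zones of this kind may have been left out. Each promoter runs from 250 bases before to 50 after the start, in lower case with each CG dinucleotide in capitals. STXBP6 (a syntaxin-binding protein) lies at chr14:25050098-25050397 on the minus strand. SLC39A10 (a zinc importer) lies at chr2:195656976-195657275, SPRY1 (an inhibitor of receptor tyrosine kinase signalling) at chr4:123398136-123398435 and SETBP1 (a SET-binding protein) at chr18:44680638-44680937, all on the plus strand. For contrast, 2 promoters of long non-coding RNA genes that start inside the 2 largest zones follow. They are LINC01549 (chr21:17438640-17438939, plus strand) and LOC107984238 (chr10:63700310-63700609, minus strand).
STXBP6: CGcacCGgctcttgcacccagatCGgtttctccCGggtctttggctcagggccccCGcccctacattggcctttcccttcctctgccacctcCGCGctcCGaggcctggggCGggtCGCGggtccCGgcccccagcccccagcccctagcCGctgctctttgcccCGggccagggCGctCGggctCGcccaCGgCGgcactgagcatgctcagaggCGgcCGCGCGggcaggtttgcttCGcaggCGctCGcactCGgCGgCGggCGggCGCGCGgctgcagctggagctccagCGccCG
SLC39A10: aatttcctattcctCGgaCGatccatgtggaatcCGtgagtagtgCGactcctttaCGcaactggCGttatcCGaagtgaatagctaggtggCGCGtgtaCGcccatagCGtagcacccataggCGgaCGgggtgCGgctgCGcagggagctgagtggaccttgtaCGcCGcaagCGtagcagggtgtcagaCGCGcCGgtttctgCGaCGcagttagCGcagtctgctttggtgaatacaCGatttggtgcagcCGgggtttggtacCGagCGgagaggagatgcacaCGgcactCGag
SPRY1: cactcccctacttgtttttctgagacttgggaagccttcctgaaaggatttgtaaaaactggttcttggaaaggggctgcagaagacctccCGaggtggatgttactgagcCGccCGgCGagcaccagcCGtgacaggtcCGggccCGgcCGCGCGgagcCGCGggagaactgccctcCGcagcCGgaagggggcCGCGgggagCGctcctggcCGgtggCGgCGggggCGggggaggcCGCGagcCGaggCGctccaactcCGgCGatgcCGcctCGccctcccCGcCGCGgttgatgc
SETBP1: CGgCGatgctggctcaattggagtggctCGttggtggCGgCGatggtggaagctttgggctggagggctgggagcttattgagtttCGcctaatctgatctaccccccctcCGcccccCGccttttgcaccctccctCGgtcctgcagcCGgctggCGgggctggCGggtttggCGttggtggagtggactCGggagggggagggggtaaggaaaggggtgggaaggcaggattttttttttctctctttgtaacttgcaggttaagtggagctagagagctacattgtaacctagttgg
LINC01549: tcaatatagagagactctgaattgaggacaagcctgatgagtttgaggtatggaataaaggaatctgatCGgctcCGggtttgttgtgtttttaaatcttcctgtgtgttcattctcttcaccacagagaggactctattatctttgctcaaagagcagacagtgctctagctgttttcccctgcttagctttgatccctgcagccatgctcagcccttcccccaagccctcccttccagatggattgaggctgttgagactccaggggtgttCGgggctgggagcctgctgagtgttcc
LOC107984238: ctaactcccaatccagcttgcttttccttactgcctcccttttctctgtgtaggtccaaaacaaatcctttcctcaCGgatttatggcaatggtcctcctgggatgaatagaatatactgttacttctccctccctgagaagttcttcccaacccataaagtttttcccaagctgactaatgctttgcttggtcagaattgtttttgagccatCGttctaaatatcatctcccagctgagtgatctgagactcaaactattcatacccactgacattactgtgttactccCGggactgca

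The flanking gene promoters held 35 (STXBP6), 30 (SLC39A10), 32 (SPRY1) and 14 (SETBP1) CG dinucleotides. Of such a gene's entries inside the zone, the one with the most CG dinucleotides was printed. The 2 non-coding RNA promoters, the entries nearest the zone centres, held 3 each. The medians below take the first entry of each gene by position, so the printed counts were not chosen on like terms. Over the 15843 protein-coding genes with an entry, the median promoter held 22, and 64.1% held 15 or more. Protein-coding genes beside deserts were close to that, with a median of 21 over 406 genes and 64.8% at 15 or more. Long non-coding RNA genes that start inside deserts were poorer in the dinucleotide, with a median of 2 over 1610 genes and 8.26% at 15 or more, against a median of 5 over 9852 such genes elsewhere. Median GC content was 41.0% inside deserts and 51.3% elsewhere. These counts describe the letters of the reference and no measurement of these cells.

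Deserts were more sparsely covered than genes. The share of all desert windows with a value was 74.5%, 74.7% and 75.8% in the untreated libraries, 41.5% and 73.8% at day 7, 66.9% and 60.0% at day 14, 66.5% to 75.9% at day 28, and 75.1% in both resistant lines. It was below the share of genic windows in 13 of 13 libraries (mean 69.5% against 95.0%, exact sign-flip permutation p = 0.000244, the smallest the design allows, adjusted p = 0.00244 over the 20 tests of library values). Over the 274 deserts with at least 50% of their windows as members, the mean difference was -3.34 points. Read counts behind a value were not given, so the depth is unknown. Values compared across all libraries rest on the 11098 member windows valued in all 13 (43.6% of members) and on 28846 genic windows (60.6%).

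In untreated cells the polarity of deserts was flatter than that of genes. The median size of polarity in member windows was 30.8, 33.3 and 21.95 points in replicates 1 to 3, against 46.7, 50.0 and 40.3 points in genic windows. Of member windows, 33.4%, 29.4% and 46.1% lay within 20 points of 0, where leftward and rightward forks are near balance, and 20.9%, 24.1% and 13.8% lay beyond 60 points. The part of the variation that pairs of untreated libraries shared had an SD of 37.4 to 41.7 points in deserts and 49.9 to 53.6 points in genic windows, so deserts had 0.750 to 0.778 times the genic value. Windows inside genes of 500 kb or more (12185 windows) were close to other genic windows, at 49.2 to 52.6 points, and gaps under 1 Mb (37447 windows) lay between, at 43.9 to 47.7. The shared SD was lower in deserts than in genes on 19 of the 20 chromosomes with over 100 desert windows. Chromosome 14 was the exception, with 53.7 points in deserts and 51.0 in genes, and chromosome 13 had the widest gap, with 27.9 and 52.3.

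Polarity changed over longer distances in deserts. Over windows 400 kb apart the mean correlation across the untreated libraries was 0.256 in deserts, -0.05 in genic windows and 0.05 in long genes, whereas 20 kb apart it was 0.693, 0.858 and 0.826. These are correlations across windows within libraries, which are not independent replicates. Neighbouring desert windows valued in all libraries were correlated less than genic ones in 10 of 13 libraries (mean 0.534 against 0.572, exact sign-flip permutation p = 0.0217, adjusted p = 0.0539 over 20 tests). Replicates 1, 2 and 4 of day 28 were the other way, and in the 3 untreated libraries the values were 0.804, 0.780 and 0.900 in deserts against 0.884, 0.857 and 0.942 in genes.

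Across a whole desert, forks ran from the flanks inwards. The inward difference, the mean polarity of member windows left of the desert's midpoint minus that right of it, averaged 36.4, 38.8 and 31.0 points in untreated replicates 1 to 3. It was above 0 in all 3 untreated libraries in 260 of the 291 deserts with a value in each, and below 0 in all 3 in 8. Its median over deserts was 35.3 points, with quartiles at 18.6 and 53.5, and 84 deserts passed 50 points. Long genes mostly had a positive difference too. Over windows valued in all libraries, 182 of 188 deserts and 115 of 135 genes of 500 kb or more were above 0. Their untreated medians were 38.2 and 47.5 points. Inward polarity was highest beside the genes and faded towards the middle. It measured 32.7 ± 2.99 points (SD, n = 3) within 100 kb of the nearer gene, 31.7 ± 2.99 at 100 to 200 kb, 20.2 ± 2.78 at 300 to 400 kb, 10.1 ± 1.24 at 500 to 600 kb and 5.47 ± 1.05 at 600 to 800 kb. In the first 100 kb outside the desert, on the gene side, it was 16.005 ± 2.67 points. Longer deserts had smaller inward differences, from 41.7 ± 3.43 points over the 124 deserts of 1 to 1.5 Mb through 37.4 ± 5.06 (71 deserts of 1.5 to 2 Mb) and 31.4 ± 3.92 (54 of 2 to 3 Mb) to 18.3 ± 3.23 (25 of 3 Mb or more, n = 3 throughout).

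**Figure D1:**
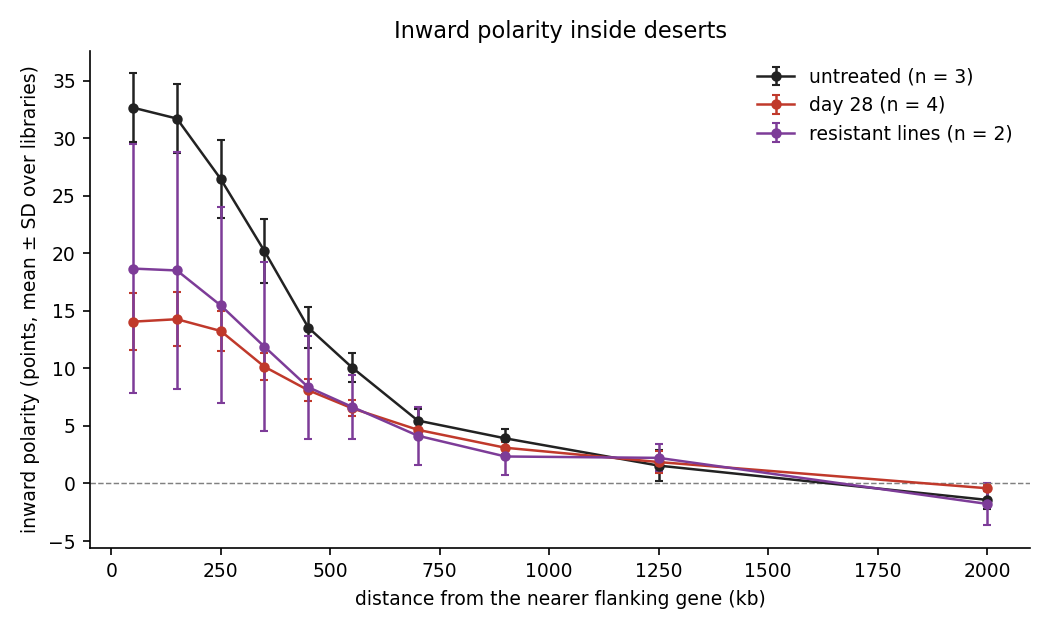
Inward polarity of desert windows (points, y) against distance from the nearer flanking gene (kb, x), as the mean over libraries with SD bars for untreated cells, day 28 and the resistant lines. Untreated cells start at 32.7 points beside the genes and day 28 at 14.1, and the curves meet near 0 beyond 1000 kb.

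The deserts with the largest untreated inward difference were short, and the values are a description of how they were picked. SYNCRIP to HTR1E (chr6:85643871-86937527, 63 members), between an RNA-binding protein and a serotonin receptor, had 104.7, 105.8 and 84.2 points in replicates 1 to 3. NEDD1 to TMPO (chr12:96953781-98515572, 77 members), between a centrosome protein and a lamina-associated protein, had 98.8, 106.5 and 79.5. TRIB1 to LRATD2 on chromosome 8 averaged 86.3 ± 5.22 points, C1orf87 to NFIA on chromosome 1 averaged 86.1 ± 12.6 and ADRA2A to GPAM on chromosome 10 averaged 85.9 ± 5.49 (SD, n = 3). At day 28 the same 5 deserts averaged 39.6 ± 11.7, 39.1 ± 13.2, 28.6 ± 14.9, 36.1 ± 11.5 and 40.0 ± 11.9 points (SD, n = 4), in that order. In each of the 5, every day 28 library lay below every untreated library. The untreated values picked these deserts, so lower values in other libraries were favoured in advance. Their highest day 28 values were 55.2, 50.9, 43.4, 48.6 and 49.2 points. At the other end, OR4C12 to OR4C46, between olfactory receptors on either side of the chromosome 11 centromere, had -19.5 ± 7.30 points over 67 members of 230 windows. CDH18 to CDH12, between 2 cadherins on chromosome 5, had -27.0, -19.0 and -4.36 points, and LOC107987004 to LOC107987067 on chromosome 9 averaged -15.9 ± 8.75 over 30 members.

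**Figure D2:**
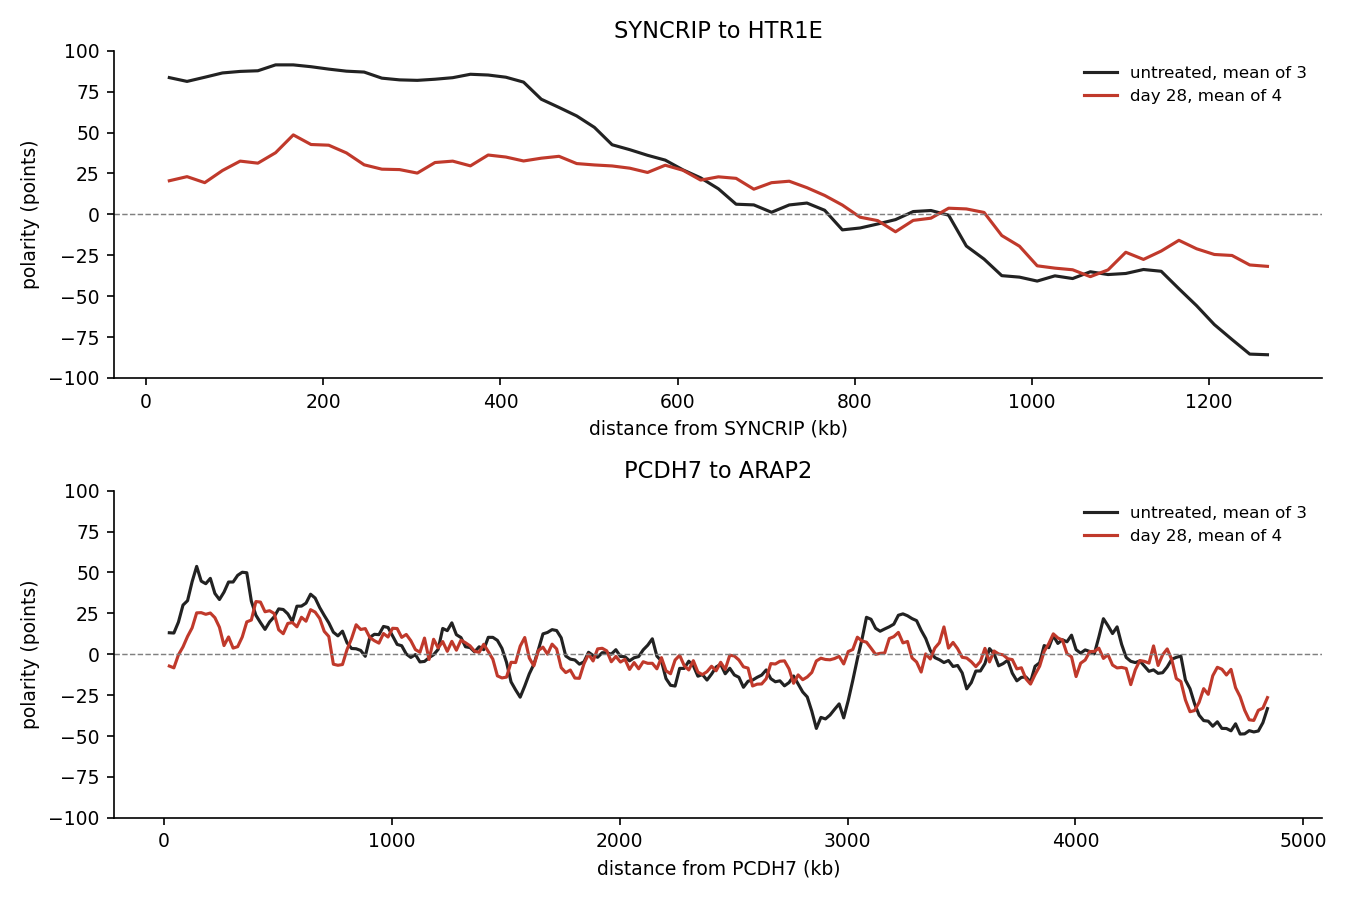
Polarity (points, y) against distance from the left gene (kb, x) across SYNCRIP to HTR1E and PCDH7 to ARAP2, as means of 3 untreated and 4 day 28 libraries smoothed over 5 windows. In SYNCRIP to HTR1E the untreated profile falls from above 80 points to below -80 and the day 28 profile stays within 50 points of 0. In the longer desert both profiles stay within 60 points of 0.

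The longest deserts had smaller inward differences, below 30 points in untreated cells in each of the 12 longest with members in at least 50% of their windows. PCDH7 to ARAP2 (chr4:31146801-36005403, 4.86 Mb, all 242 windows members), beside a protocadherin, had 23.7, 19.4 and 17.6 points in untreated replicates 1 to 3, and in 32.6% of its members the mean size of untreated polarity was under 20 points. Its day 28 libraries ran from 1.02 to 18.3 points, overlapping the untreated ones. Of these 12 deserts, 11 had an untreated mean above 0. NUDT12 to EFNA5 (24.6 ± 7.09 points), CTNNA2 to SUCLG1 (20.5 ± 4.79), AGA to TENM3 (19.6 ± 4.89), NCAM2 to MRPL39 (18.7 ± 4.73), C4orf33 to PCDH10 (15.9 ± 4.33) and SLITRK5 to GPC5 (15.7 ± 7.52, SD, n = 3) each have a neuronal adhesion or guidance gene at a flank. IGFBP7 to LOC124900173 had 25.2 ± 4.45 points. ZNF337 to LOC124904970 (29.6 ± 8.73), ZNF37A to ZNF33B (21.9 ± 2.23) and PRIM2 to KHDRBS2 (3.87 ± 4.61) had members in 138 of 255, 120 of 220 and 109 of 194 windows. The exception was LOC105372073 to PIK3C3 (chr18:37774689-41955233, 208 members), beside a lipid kinase of autophagy, at -14.1, -10.6 and -16.3 points. Its day 28 libraries ran from -12.8 to -1.42 points.

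Deserts that flank developmental regulators and those that flank neural adhesion genes were read from 2 gene lists of 143 and 92 genes. Developmental regulators (transcription factors and signals of embryonic patterning) flanked 33 deserts, with a median inward difference of 42.6 points in untreated cells (from -3.85 to 84.7), above 0 in all 3 untreated libraries in 31. Neural adhesion genes flanked 69 deserts, with a median of 21.5 points (from -16.8 to 68.4) and 61 above 0 in all 3. The 193 deserts with a value and neither kind of flank had a median of 36.8 points, and 168 were above 0 in all 3. The neural adhesion deserts were also longer, with a median of 2.23 Mb against 1.47 Mb beside developmental regulators and 1.51 Mb beside neither, and length was not separated from the list. Among developmental regulators, VRK1 to BCL11B (a T-cell and neuronal factor) had 76.2 ± 7.85 points, TMEM182 to POU3F3 63.1 ± 5.30, GALR1 to SALL3 62.8 ± 6.44, MYC to GSDMC 61.9 ± 5.56 and ARRDC3 to NR2F1 55.7 ± 4.30 (SD, n = 3). SLC35B3 to TFAP2A had 42.6 ± 3.75, KCNJ2 to SOX9 21.6 ± 1.68, MCTP2 to NR2F2 14.9 ± 2.67 and GATA3 to CELF2 1.301 ± 4.46. Among the longest neural adhesion deserts not given above, MAT2B to TENM2 had 34.5 points, SPRY2 to SLITRK1 had 21.1 and IFTAP to LRRC4C had -4.31. Inward differences within the developmental list thus ranged widely. At day 28 the list medians were 22.6 points beside developmental regulators, 13.3 beside neural adhesion genes and 19.2 beside neither.

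On average, inward polarity at the edge was lower where a gene's start faced the desert than where its end did. The promoter table gave the strand of 227 genes whose start and 212 whose end faced the desert, among the 548 flanks of the 274 deserts with at least 50% of their windows as members. Within 300 kb of a gene whose end faced the desert, inward polarity was 35.1, 37.2 and 30.5 points in untreated replicates 1 to 3. Within 300 kb of a gene start it was 28.2, 29.9 and 24.1 points. The gene-end value was the higher in 13 of 13 libraries, with a mean start minus end difference of -4.43 points (exact sign-flip permutation p = 0.000244, the smallest possible, adjusted p = 0.00244 over 20 tests). This comparison was chosen after the data were seen. The 13 libraries share the same deserts, so this p-value weighs libraries and not flanks, and no test over flanks was run. Over flanks, the median untreated value was 21.5 points at gene starts and 31.4 at gene ends. The shares of flanks above 0 were close, at 83.3% and 84.4%. The 3 untreated libraries alone cannot go below p = 0.25 in an exact sign-flip permutation test. In the 97 deserts with 1 flank of each kind the values were 39.0, 41.4 and 33.1 points at gene ends against 24.5, 25.3 and 19.9 at gene starts in untreated replicates 1 to 3. The inward difference over the whole desert was alike for the flank kinds, at 35.8 points with 1 of each, 36.2 with 2 gene starts (51 deserts) and 36.0 with 2 gene ends (36 deserts). The start minus end difference was -6.89 ± 0.489 points in untreated cells (SD, n = 3) and -3.91 ± 2.30 in the 8 osimertinib libraries, and the change between them did not pass (exact permutation p = 0.0848, adjusted p = 0.141).

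**Figure D3:**
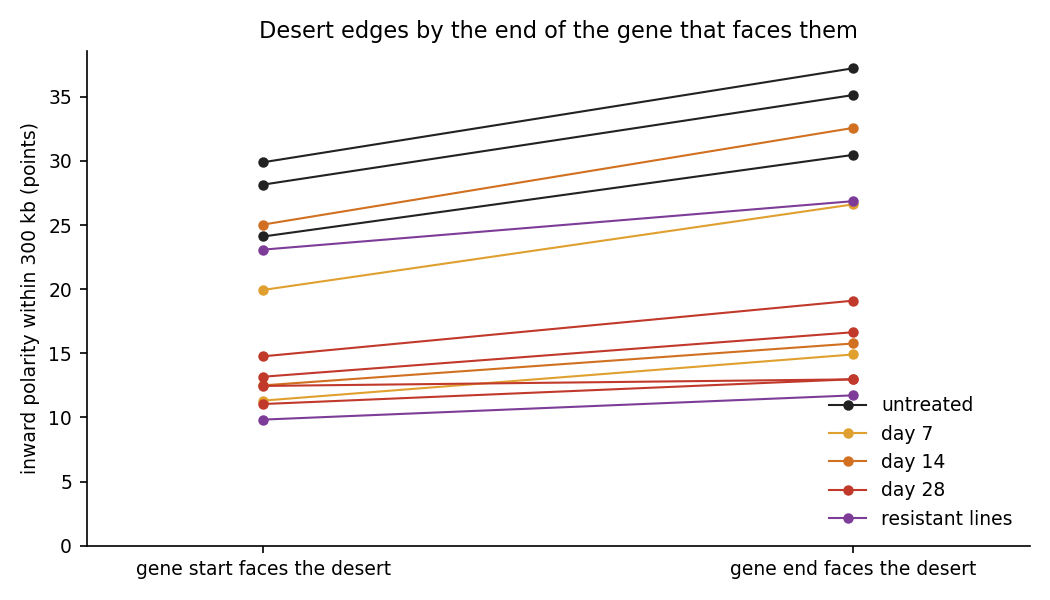
Inward polarity within 300 kb of a flanking gene (points, y), for flanks where the gene's start or its end faces the desert (x), with 1 line for each of the 13 libraries coloured by group. The line rises towards gene ends in 13 of 13 libraries, with a start minus end difference from -7.53 points in day 14 replicate 2 to -0.513 in day 28 replicate 1.

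Initiation zones were called as unbroken rises of the smoothed untreated profile through 0 by at least 40 points, and termination zones as the mirrored falls. Per pair of untreated libraries, deserts held 260 to 334 initiation zones, or 5.82 per 10 Mb on average, against 6.41 per 10 Mb in genic windows. Termination zones were sparser in deserts as called, at 5.21 per 10 Mb against 17.3 in genic windows. The genic over desert density ran from 2.59 to 4.14 across the untreated pairs. Other minimum changes and smoothings were not tried for termination zones. The initiation density ratio depended on the settings: deserts over genes was 0.905 as called, 0.671 with a minimum of 60 points, and 1.49 with a minimum of 20 points. Desert initiation zones were also shallower. Over zones called without the library measured, the mean rise was 66.7, 66.8 and 51.3 points in deserts and 86.2, 94.1 and 71.9 in genic zones of untreated replicates 1 to 3. Falls of termination zones were 44.8, 52.0 and 29.2 points in deserts and 87.5, 93.6 and 76.8 in genes.

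Desert zones gathered at the edges. In the mean of the 3 untreated libraries there were 265 desert initiation zones, 9.05 per 10 Mb within 200 kb of a flanking gene and 3.75 to 4.35 per 10 Mb farther in. The mean rise was 93.1 points within 200 kb and 63.7 to 67.3 farther in. Termination zones numbered 3.13 per 10 Mb within 200 kb, 5.22 at 200 to 500 kb, 4.197 at 500 to 1000 kb and 2.26 at 1000 to 2500 kb (14 zones). The start of a flanking gene lay inside 44 of the 265 initiation zones and in 11 of the 20 largest. A start could be counted only for genes with a promoter entry, and 248 of the 265 zones had an entry for a flanking gene. The mean rise of the 44 was 101.8 points, against 71.2 in the others. All 44 were among the 104 zones within 200 kb of a gene, so the start was not separated from distance. Long non-coding RNA genes overlapped the centre window of 34.7% of initiation zones and 39.1% of termination zones, against 31.7% of all desert windows.

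The 5 largest initiation zones, by the change of the smoothed untreated mean, were all within 200 kb of a gene, and their sizes describe how they were picked. The largest lay between USP25 and CXADR, a ubiquitin protease and a cell adhesion protein that serves as a virus receptor (chr21:17300001-17620000), with rises of 177.1, 196.8 and 152.0 points in untreated replicates 1 to 3. Its 4 day 28 libraries had 97.1, 68.8, 57.4 and 77.1 points, all below the untreated ones, and lines 5 and 10 had 53.5 and 87.0. REEP3 to CTNNA3 (174.7 ± 9.78 points), COBL to POM121L12 (168.0 ± 9.02), TMEFF2 to SLC39A10 (163.5 ± 21.9) and STXBP6 to NOVA1 (160.4 ± 4.92, SD, n = 3) followed. At day 28 these 4 had 66.0 ± 27.2, 63.7 ± 30.9, 42.4 ± 27.0 and 61.2 ± 29.4 points (SD, n = 4). The SLC39A10 and STXBP6 promoters printed above lie inside the last 2 of these zones. The zones over the SPRY1 and SETBP1 promoters had mean untreated rises of 161.9 and 146.2 points. The largest termination zones by the same measure were at LINGO2 to ACO1 (-167.1 ± 5.64 points), ADCYAP1 to METTL4 (-165.8 ± 8.40) and LOC105372073 to PIK3C3 (-148.1 ± 23.5, SD, n = 3), 325, 368 and 1645 kb from the nearer gene. At ADCYAP1 to METTL4 the 4 day 28 libraries had -7.56, -57.2, -75.8 and -13.4 points, all smaller falls than in untreated cells. Because untreated values picked the zones named here, smaller rises and falls in other libraries were favoured in advance.

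The comparison of treated with untreated cells asks how polarity in deserts differs under osimertinib. Most captured ends lie at forks in growing cells, and the day 28 cultures are described as non-proliferative. The share of their captured ends that lay at forks was not tested. The desert profile had a smaller amplitude in the drug. The amplitude, the slope of a library's polarity on the mean of untreated pairs that leave the library out, was 0.948, 1.02 and 0.727 in untreated replicates 1 to 3. It was 0.595 and 0.365 at day 7, 0.399 and 0.756 at day 14, and 0.329, 0.319, 0.462 and 0.389 at day 28. The day 28 libraries all lay below the untreated ones, whereas day 14 replicate 2 lay above untreated replicate 3. The 8 osimertinib libraries averaged 50.3% of the untreated mean (0.452 ± 0.151 against 0.898 ± 0.152, exact permutation p = 0.0242, adjusted p = 0.0539 over 20 tests). Without untreated replicate 1 or 2 the difference of -0.446 became -0.421 and -0.386, with an exact permutation p = 0.0889 in both. Day 28 alone averaged 41.7% of untreated (exact permutation p = 0.0571, the smallest that 3 against 4 libraries allow).

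Deserts kept more of their amplitude than genes did. The ratio of desert to genic amplitude was 0.970, 0.983 and 0.878 in untreated replicates 1 to 3. It was 1.13 and 1.11 at day 7, 1.14 and 1.17 at day 14, and 1.294, 1.303, 1.06 and 1.24 at day 28. Every osimertinib library lay above every untreated library. On the log2 scale the ratio rose from -0.09 to 0.24, by 0.32 (exact permutation p = 0.0121, the smallest 3 against 8 libraries allow, adjusted p = 0.0404 over 20 tests). In percent of the untreated mean, deserts kept 50.3% and genic windows 41.0%. At day 28 they kept 41.7% and 33.0%. The log2 difference was 0.37 at day 28 (exact permutation p = 0.0571), and without its replicates 3 and 4 it was 0.46. Against genes of 500 kb or more in place of all genic windows the osimertinib difference was 0.24, and against gaps under 1 Mb it was 0.15 (exact permutation p = 0.0121 and 0.0242). The 3 untreated and 8 osimertinib libraries also differed in the percentage of desert windows valued (74.5% to 75.8% and 41.5% to 75.9%), and its part in the result was not tested. With a ratio of covariances, which noise in the reference profile does not lower, the difference was again 0.32.

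**Figure D4:**
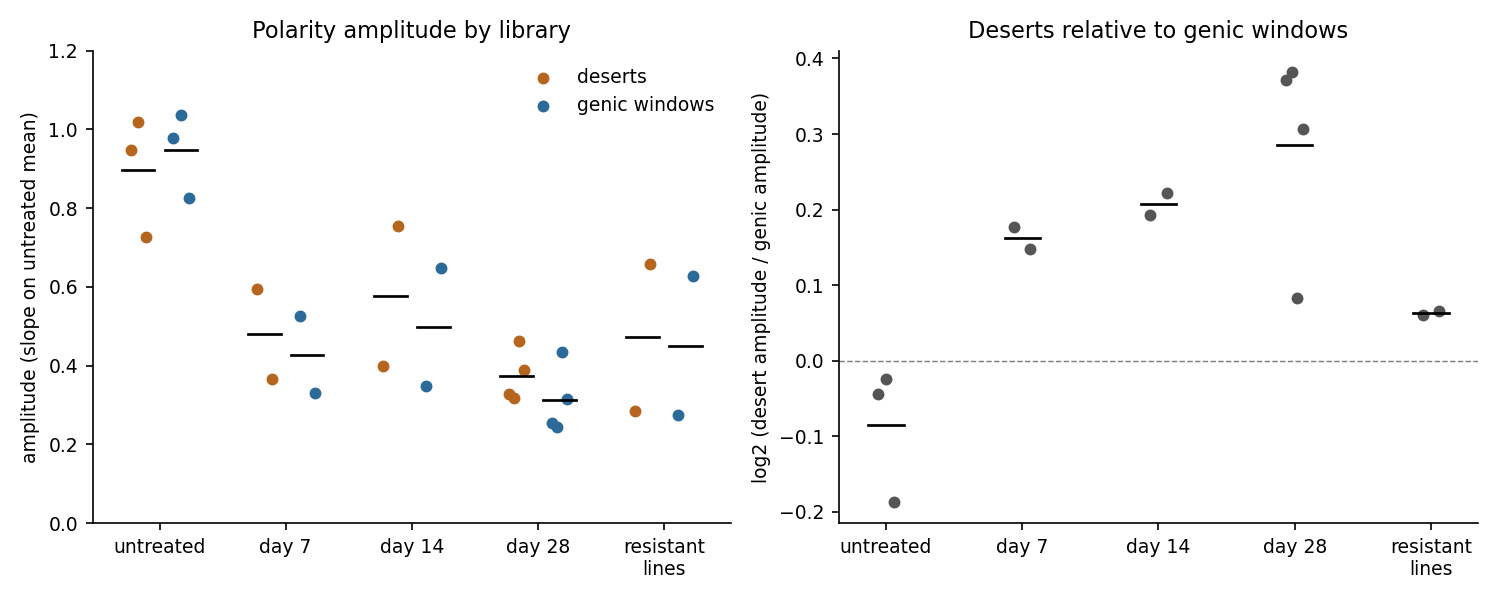
Left, amplitude of each library (slope on the untreated mean, y) in deserts and genic windows by group (x), and right, the log2 ratio of the 2. Points are libraries and bars group means. The 8 osimertinib libraries have log2 ratios of 0.08 to 0.38 and the 3 untreated ones of -0.19 to -0.02.

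The inward difference shrank less than the zones inside deserts. It was 28.1 and 16.3 points at day 7, 17.3 and 33.9 at day 14, and 16.4, 15.3, 20.0 and 17.9 at day 28, where untreated libraries had 31.0 to 38.8. The day 28 libraries all lay below the untreated ones, and day 14 replicate 2 lay above untreated replicate 3. The osimertinib libraries averaged 20.7 ± 6.73 points (SD, n = 8) against 35.4 ± 4.00 (SD, n = 3; exact permutation p = 0.0242, adjusted p = 0.0539 over 20 tests). Leaving out untreated replicate 1 or 2 moved the difference of -14.8 to -14.3 or -13.0 points, with an exact permutation p = 0.0889. The direction was kept: 88.9% to 93.1% of deserts with a value were above 0 in each osimertinib library, against 91.8% to 94.8% in the untreated ones. The rise of desert initiation zones fell further, from 61.6 ± 8.97 points to 21.0 ± 9.80. It was 34.3 and 16.2 points at day 7, 14.5 and 37.1 at day 14, and 10.2, 13.7, 22.02 and 19.98 at day 28, with no overlap with untreated libraries (exact permutation p = 0.0121, adjusted p = 0.0404). Desert zone rise relative to genic zone rise showed no difference past the test (log2 -0.45 untreated and -0.56 under osimertinib, exact permutation p = 0.485). The ratio of inward difference to desert zone rise, chosen after the data were seen, rose on the log2 scale from -0.79 to 0.05 without overlap (exact permutation p = 0.0121, adjusted p = 0.0404). Over genic amplitude the inward difference likewise rose, by 0.53 on the log2 scale (exact permutation p = 0.0121, adjusted p = 0.0404).

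**Figure D5:**
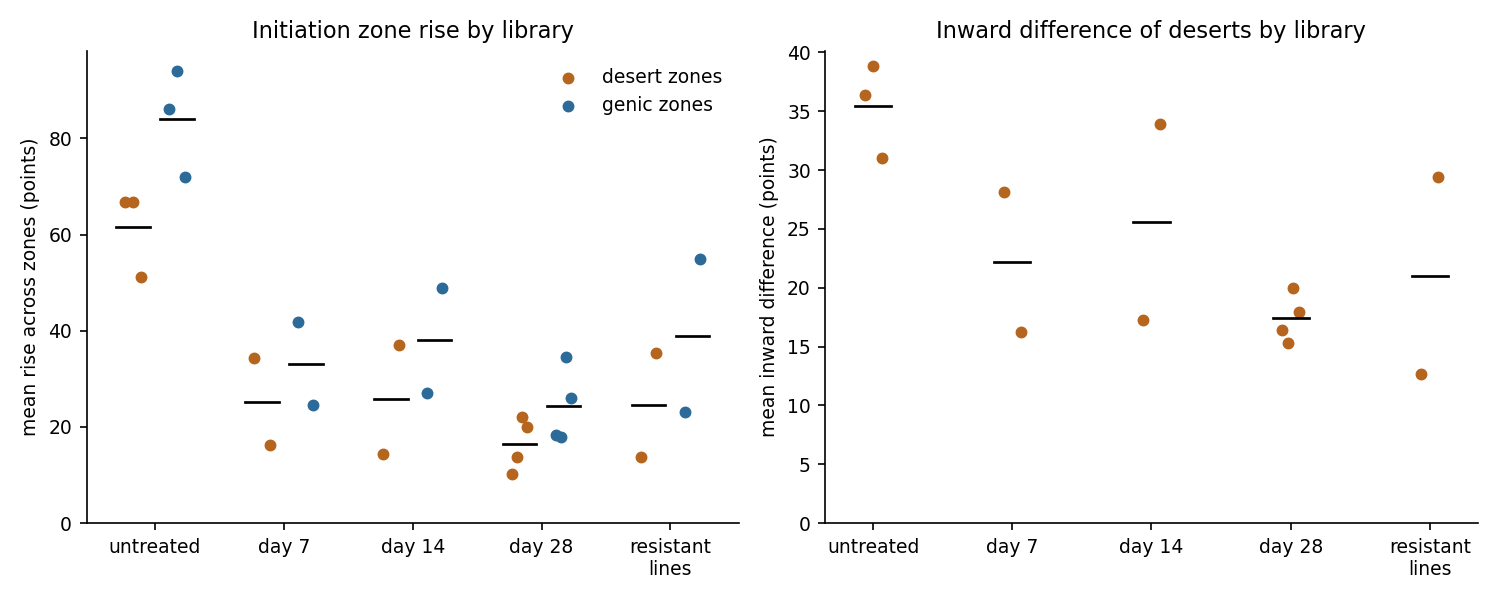
Left, mean rise across initiation zones (points, y) in deserts and genic windows of each library by group (x), and right, the mean inward difference of deserts (points). Points are libraries and bars group means. The day 28 libraries have desert rises of 10.2 to 22.02 points and inward differences of 15.3 to 20.0.

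By distance from the flanking genes, the loss was largest at the edge. At day 28 inward polarity was 14.1 ± 2.49 points within 100 kb (43.1% of untreated), 10.1 ± 1.19 at 300 to 400 kb (50.2%) and 6.54 ± 0.679 at 500 to 600 kb (64.8%, SD, n = 4). Across all 8 osimertinib libraries it was 52.9% of untreated within 100 kb and 100.5% at 600 to 800 kb, where the untreated value was 5.47 points. These shares are a description, since the untreated values by which they divide fall towards 0. Amplitude in the interior, 500 kb or more from both genes, relative to that within 300 kb, did not change past the test (log2 -0.38 to -0.21, exact permutation p = 0.145; 0.23 higher without day 28 replicates 3 and 4, exact permutation p = 0.0238). This comparison, too, was chosen after the data were seen.

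Single desert windows that changed at day 28 had mostly been strongly polar and ended nearer 0. At day 28, 611 of 11098 desert windows (5.51%) passed the limma test at an adjusted p of 0.05, where 11.5% of all 80351 windows tested and 15.3% of genic windows did. Of the 611, 297 moved upwards and 314 downwards, each against the sign of its untreated mean, and 601 ended nearer 0 while 117 crossed it. The called windows had been strongly polar, with a median untreated size of 81.4 points against 24.9 over all desert windows tested. Polarity cannot pass 100 points, and the smallest called change was 48.6 points. A window at that median of 81.4 could thus pass only by moving against its sign. The shared direction is therefore a description and has no test. The count was 0 on leaving out untreated replicate 1, 2 or 3 or day 28 replicate 1 or 2 (1310 to 1974 windows at an unadjusted p under 0.05). With each library scaled to the untreated amplitude it was 0 (477 at an unadjusted p under 0.05). With replicate number as a block, and the resistant lines left out, it was also 0 (1678 at an unadjusted p under 0.05). It was 2050 with array weights (18.5%, against 31.1% of all windows). It was 1565 with the untreated and day 28 libraries alone (14.1%, against 24.3%). It was 191 (1.66%) without day 28 replicate 4 and 387 (3.49%) without replicates 3 and 4. Of all windows, 4.16% and 7.55% passed there. Leaving out a library also changed the windows tested. Without day 7 replicate 1 there were 16840 in deserts, so counts after such omissions have another base. At day 7, 63 desert windows passed (1.1% of all windows did), of which 49 ended nearer 0 and 57 crossed it. At day 14, 40 passed (0.631% of all windows did), of which 22 ended nearer 0 and 38 crossed it. Leaving out single libraries gave 0 at day 7 without untreated replicate 1, 2 or 3, 5 without day 7 replicate 1 and 349 without day 7 replicate 2. At day 14 it gave 0 without untreated replicate 1 or 2, 1 without untreated replicate 3, and 98 and 241 without day 14 replicates 1 and 2.

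Windows of like untreated strength fell less in deserts. Where untreated polarity was 80 to 100 points, 724 desert windows went from a mean of 87.1 to 33.9 points at day 28 and 3868 genic windows from 86.7 to 28.6, and limma called 45.4% and 58.4% of them. At 60 to 80 points, 1169 desert windows went from 69.9 to 27.2 and 5778 genic windows from 70.2 to 22.04, with 16.3% and 29.4% called. Of desert windows 6.52% lay in the top class and of genic windows 13.4%. The classes were formed on the untreated values that also enter the comparison, so these values have no test.

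The largest increases were in windows that leftward forks had crossed. In C4orf33 to PCDH10 (chr4:129840001-129860000) untreated polarity was -85.7, -78.9 and -89.7 points and day 28 polarity was 9.09, 23.1, 0 and 55.6 (limma adjusted p = 0.0289). In KCNJ3 to NR4A2 (chr2:156100001-156120000), CDH2 to DSC3 (chr18:30880001-30900000) and DPP10 to DDX18 (chr2:117720001-117740000), means went from -84.1 ± 19.4, -89.4 ± 6.27 and -94.0 ± 7.09 points (SD, n = 3) to 7.70 ± 19.7, 0.159 ± 34.02 and -8.97 ± 18.3 (SD, n = 4; limma adjusted p = 0.0289 each). The largest decreases were in ADGRL3 to TECRL (chr4:63240001-63260000) and EDIL3 to COX7C (chr5:85660001-85680000), from 37.6 ± 32.8 and 93.3 ± 6.67 points to -56.5 ± 34.1 and 1.74 ± 47.1 (limma adjusted p = 0.0289 each). SYNCRIP to HTR1E (chr6:85740001-85760000) went from 94.0 ± 5.23 to 4.67 ± 49.3 and LCORL to SLIT2 (chr4:18360001-18380000) from 62.2 ± 40.2 to -26.8 ± 42.3 (limma adjusted p = 0.0293 and 0.029). Naming was limited to windows past the test in which every day 28 library lay on 1 side of every untreated library. That separation in these 8 windows is therefore how they were picked. Values of exactly 100 or -100 in several windows mean that the reads of that library lay on 1 strand there.

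Whole deserts were tested by their inward difference together with genes of 500 kb or more, over windows valued in all libraries. At day 28, 81 of 188 deserts passed limma at an adjusted p of 0.05, where 52% of the 323 deserts and long genes did, and 80 of the 81 fell. The median desert went from 38.2 to 20.2 points and the median long gene from 47.5 to 17.1. The largest falls were in NEDD1 to TMPO, by 65.0 points (SE 10.9, limma adjusted p = 0.000168), C1orf87 to NFIA, by 61.8 (SE 12.4), and TRIB1 to LRATD2, by 57.3 (SE 10.2). The 1 desert that rose was CDH18 to CDH12, from -29.8 ± 14.2 points to 8.50 ± 18.4 (SE of the difference 9.81, limma adjusted p = 0.0038), and in 51.7% of its members the mean size of untreated polarity was under 20 points. At day 7, 46 deserts passed (34.1% of all units), and at day 14, 17 (20.4%), all of them falls. The day 7 count fell to 24 and 15 when untreated replicates 1 and 2, respectively, were left out, and to 6 when day 7 replicate 2 was. The day 14 count was 7 without untreated replicate 1 or 2, and 2 and 49 without day 14 replicates 1 and 2.

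The resistant lines, which grow in the drug, differed widely from each other. Desert amplitude was 0.285 in line 5 and 0.658 in line 10, both below the untreated libraries (mean 52.5% of untreated, exact permutation p = 0.2, the smallest that 3 against 2 allow). Desert over genic amplitude was 1.04 in line 5 and 1.05 in line 10, above the untreated libraries and below the 8 osimertinib libraries. Inward differences were 12.6 and 29.4 points and desert zone rises 13.7 and 35.3, in lines 5 and 10. Line 5 was thus below every day 28 library in inward difference, and line 10 above each of them. No desert window passed limma against untreated (0 of all 80351 windows, 0%, with 696 desert windows at an unadjusted p under 0.05). With array weights 46 passed (0.414%, against 1.14% of all windows). With 2 groups alone 482 passed (4.34% against 7.87%), and at 100 kb 64 of 2592 (2.47% against 6.98%). In inward difference 23 of 188 deserts passed limma, all falls, where 22.6% of all units did. That count was 0 without line 5 (5 deserts at an unadjusted p under 0.05), 57 without line 10, and 7, 2, 13, 15 and 12 without untreated replicates 1 and 2 and day 28 replicates 1, 2 and 4.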

How the data were processed

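TrAEL-seq polarity was measured in 13 PC9 libraries. The authors deposited 1 table of strand polarity, a score from -100 to 100 percentage points, in 20 kb windows every 10 kb, as read from the values and the file headers. Per the submitters' processing notes, the tools included Trim Galore 0.6.5 and Bowtie2 2.4.1, with GRCh38 among the builds named. Read counts, which strand is positive and any minimum of reads are not stated there, so the depth and its precision are unknown. Deserts came from the RefSeq GRCh38.p14 gene table, which places a few genes of other scaffolds at chromosome starts and so makes sparsely covered gaps. Promoters came from its 300 base entries.

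Amplitudes, zones and inward differences were computed in Python 3.11.15 (numpy 2.4.6, pandas 2.3.3, scipy 1.17.1) and checked on simulated profiles. Zones used profiles smoothed over 4 windows (80 kb), and inward differences used deserts of at least 20 members. Groups of libraries were compared with exact permutation tests (two-sided), and differences within libraries by exact sign-flip, with Benjamini-Hochberg adjustment over 20 tests. Windows were tested with limma 3.58.1 (R 4.3.3; all 13 libraries in 1 fit, eBayes with a trend) over the 80351 windows of chromosomes 1 to 22 and X valued in all libraries. The members, the gene lists and the rule for named deserts (the 12 longest, the 5 most and 3 least inward, the 4 largest window changes each way, the 5 initiation and 3 termination zones that changed most, up to 10 deserts per list, of which 1 is not reported here) were chosen with earlier results of these data known. Replicate numbers were not used to pair samples in the main fits. Of 13 pairs with the same number, 0 had deviations correlated over 0.1 (from -0.07 to 0.07). These correlations cannot show whether cultures of the same number were handled together.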

Additional observations from a re-analysis of the deposited data

Results flagged for a closer look

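The share of desert windows with a value was 41.5% in day 7 replicate 1, far below the other 7 osimertinib libraries (60.0% to 75.9%). It was the lone library far from its group among 16 groups of values examined, and chance alone marks about 1 in 20 groups. The desert to genic amplitude ratio of this library, 1.13, lay within the range of the other osimertinib libraries.

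The change under osimertinib differed between deserts and genes: the log2 ratio of desert to genic amplitude was 0.32 higher than in untreated cells, with every osimertinib library above every untreated one (exact permutation p = 0.0121).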

How the results depend on the processing

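In leaving out a library from a comparison of library values, it stayed in the untreated reference. The osimertinib difference in desert amplitude then ran from -0.532 to -0.386 and that in inward difference from -17.0 to -13.0 points. Both missed an exact permutation p of 0.05 without untreated replicate 1 or 2 (p = 0.0889) and passed otherwise. The log2 difference of desert over genic amplitude passed in all 10 other alternatives (0.15 to 0.38) and in 11 of 11 omissions (0.27 to 0.35). The deserts over genes density of initiation zones, 0.905, was 1.49 and 0.671 with a minimum rise of 20 and 60 points, and 1.46 and 0.617 with smoothing over 2 and 8 windows. Interior over edge amplitude passed without day 28 replicates 3 and 4 (0.23).

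Counts of desert windows called by limma moved most, and leaving out a library also changed the number of windows tested. With array weights the counts were 12, 0, 2050 and 46 at day 7, day 14, day 28 and in the resistant lines. Of all windows, 0.178%, 0.00871%, 31.1% and 1.14% passed there. With the 2 groups alone, day 14, day 28 and the resistant lines gave 0, 1565 and 482 (0%, 24.3% and 7.87% of all windows). The 2 counts of 0 at day 14 had 1006 and 1670 windows at an unadjusted p under 0.05. With 100 kb windows, day 7, day 14 and the resistant lines gave 355, 161 and 64 (23.7%, 13.4% and 6.98% of all such windows). Without day 28 replicates 3 and 4, day 7, day 14 and day 28 gave 21, 15 and 387 (0.326%, 0.219% and 7.55% of all windows). With those libraries at day 7 that day gave 0 (1771 windows at an unadjusted p under 0.05). With each library scaled to the untreated amplitude, and with the replicate block, day 7, day 14 and day 28 gave 0 (431, 389 and 477 windows, and 1325, 1162 and 1678, at an unadjusted p under 0.05). Without 1 library the counts ran from 0 to 349, 0 to 241 and 0 to 1049, and in the resistant lines stayed at 0. Deserts called at day 28 by inward difference were 81, 68 with the replicate block, 121 with array weights and 55 to 99 without 1 library. Where a cause is not given by the setting itself, it was not tested. Depth is unknown, and fewer valued windows limit what deserts can show.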
